A study of Mus musculus with 6 samples.

Results

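The subunits of oxidative phosphorylation were examined as 1 gene set drawn from both genomes of the cell. Its members are all rows of the deposited expression tables whose symbol starts with Nduf, Uqcr, Atp5, Cox4 to Cox8, mt-Nd, mt-Co, mt-Cytb or mt-Atp. The rule takes in 105 of 21936 rows: 81 nuclear subunit genes, 13 mRNAs encoded in mitochondrial DNA, and 11 other rows. The nuclear subunit genes comprise 36 of complex I, 8 of complex III, 20 of complex IV and 17 of ATP synthase. Of the mitochondrially encoded mRNAs, 7 belong to complex I, 1 to complex III, 3 to complex IV and 2 to ATP synthase. The 11 other rows are 8 Ndufaf assembly factors of complex I, a pair of symbols ending in -ps, and a second row for Atp5o. Expression was measured by RNA sequencing of sorted mouse macrophages in 3 libraries labelled WT (ALKBH5flox/flox, APOE-/-) and 3 labelled CKO (ALKBH5flox/flox, Lyz2-Cre, APOE-/-). All mice lacked Apoe per the labels and ate a high-fat diet for 4 months; the loxP-flanked Alkbh5 alleles were present in both groups. Lyz2-Cre expresses Cre recombinase from the lysozyme 2 locus, which is active in macrophages but also in neutrophils and other myeloid cells. The labels give no age, no tissue of origin and no sort markers, and the series gives n = 3 per group without saying that these were 3 animals. The spread that enters the p-values is that between libraries, and may be technical only.

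Oxidative phosphorylation passes electrons from NADH and succinate through complexes I to IV to oxygen, and ATP synthase (complex V) uses the proton gradient that results. Complexes I, III and IV and ATP synthase are built from proteins of both genomes: the mitochondrial genome encodes a few hydrophobic core subunits, and the nuclear genome encodes all others. Macrophages are known to shift between reliance on this pathway and on glycolysis with their state of activation.

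Of 3 genes that the genotypes bear on, Alkbh5 and Apoe did not read as the labels would have it. Alkbh5, the gene to be deleted, read 3.77, 3.95 and 3.88 FPKM (reads scaled to gene length and to the total of assigned reads) in WT-labelled libraries and 9.15, 8.61 and 8.5 FPKM in CKO-labelled ones. Directions below are therefore those of the labels, labelled CKO against labelled WT. Apoe, labelled as deleted in all mice, had a mean of 1635 FPKM in WT-labelled libraries and 95.0 FPKM in CKO-labelled ones. Lyz2, whose locus carries Cre in the mice labelled CKO, was lower in CKO-labelled libraries, with a mean of 15116 against 6556 FPKM. The labels do not say which part of Alkbh5 or Apoe is removed, and the tables give 1 value per gene. Depth was 15422154 to 18418903 reads assigned to genes per library. All 11 macrophage markers examined reached 1 FPKM, 6 of them higher and 5 lower in CKO-labelled libraries. Their sum, most of it Lyz2, was 16385 to 18298 FPKM in WT-labelled libraries and 9290 to 9713 FPKM in CKO-labelled ones. Single markers moved far both ways, such as Marco (means of 0.468 against 68.0 FPKM) and Mrc1 (29.7 against 1.88 FPKM). Summed neutrophil markers were 660 to 950 FPKM in WT-labelled libraries and 120 to 129 FPKM in CKO-labelled ones, with 8 of 9 tested markers lower. The genes listed as monocyte markers went both ways, 3 of 6 higher and 2 lower. Their sum of 34.7 to 42.8 against 113 to 136 FPKM was mostly Ly6c2 and Plac8. Ccr2 had means of 6.35 against 0.636 FPKM. Cd177, in this list but known as a neutrophil surface protein, had means of 8.67 against 0.506 FPKM. Summed T and NK cell markers were 4.94 to 5.05 against 0.953 to 1.06 FPKM, most of it Cd4 in WT-labelled libraries (3.94 against 0.483 FPKM), the 1 gene of that list that was tested. B cell markers summed to 2.06 to 3.67 against 0.984 to 1.78 FPKM, and red cell and platelet markers, nearly all Ppbp, Pf4 and Itga2b, to 173 to 189 against 115 to 127 FPKM. Adipocyte markers summed to 38.0 to 41.8 against 6.60 to 6.88 FPKM, nearly all of it Fabp4, which macrophages also express (39.4 against 6.76 FPKM). Plin1, Lep, Cidec and Cfd were at 0, Adipoq was at most 0.130 FPKM, and summed muscle and heart markers stayed at or under 0.203 FPKM in every library with Myh6, Actc1 and Ckm at 0. The part of these cell type differences in the results below was not tested. In bulk RNA, a smaller share of one kind of cell and less of a transcript per cell cannot be told apart.

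Several mitochondrial mRNAs share their sequence with copies of mitochondrial DNA in the nuclear genome, so the sequences are shown before the values. In the transcripts of GENCODE M21 (mm10), 5 mitochondrially encoded mRNAs had nearly all of their 75-base stretches in an annotated pseudogene cluster on chromosome 1. The shares were 99.5% for mt-Co2, 99.5% for mt-Atp6, 99.9% for mt-Co3, 97.8% for mt-Nd3 and 98.7% for mt-Nd4l. For mt-Nd4 it was 61.5%, and for mt-Co1 27.5%. Over annotated genes anywhere else in the genome the share was 39.8% for mt-Co1, 5.71% for mt-Nd2 and 1.66% for mt-Nd5, and 0% for mt-Nd1, mt-Nd6, mt-Cytb and mt-Atp8. Sequence between annotated transcripts was not searched, so the 0% of mt-Atp8, whose neighbours mt-Co2 and mt-Atp6 both have copies on chromosome 1, does not speak to a copy without annotation. The copy of mt-Co2 is Gm28661 (chr1:24614885-24615565, minus strand) and was identical over all 681 aligned bases. The copy of mt-Nd3 is Gm28438 (chr1:24612775-24613119, minus strand) and differed at 1 of 345 aligned bases, T3C, counted from 1 at the first base of the mitochondrial mRNA. The first 60 bases of both pairs follow, with the differing base in capitals; they show that a read from most of these stretches has more than 1 possible origin.
mt-Co2: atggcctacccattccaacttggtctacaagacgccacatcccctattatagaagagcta
Gm28661: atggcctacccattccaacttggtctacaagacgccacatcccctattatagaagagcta
mt-Nd3: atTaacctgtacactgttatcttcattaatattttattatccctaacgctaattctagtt
Gm28438: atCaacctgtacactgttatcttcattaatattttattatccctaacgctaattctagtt

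All 11 mitochondrially encoded mRNAs that could be tested were lower in CKO-labelled libraries. A gene was tested where its FPKM was at least 1 in at least 3 libraries, and called at a limma adjusted p under 0.05. Among all 9953 genes tested 81.1% were called, 50.5% lower and 30.5% higher, so a call alone sets few genes apart here. The median log2 fold change of the 11 mRNAs was -0.44, with a range of -0.87 to -0.23, against -0.14 for all genes tested. Changes throughout are differences of log2(FPKM + 1), which understates the change of low genes.

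The decrease was widest for mt-Nd1, mt-Nd2 and mt-Nd4 of complex I and for cytochrome b. mt-Nd1 (MT:2751-3707), a core subunit of the proton-pumping arm of complex I, read 1188, 1202 and 1272 FPKM in WT-labelled libraries and 677, 671 and 647 FPKM in CKO-labelled ones. Its log2 fold change was -0.87 (SE 0.0313, adjusted p = 2.71e-10). mt-Nd2, another subunit of that arm, read 595, 618 and 664 FPKM against 368, 361 and 353 FPKM, a log2 fold change of -0.79 (SE 0.0381). In both genes every library labelled CKO lay below every library labelled WT. mt-Cytb, the electron-carrying cytochrome b of complex III, read 1284, 1259 and 1345 FPKM against 858, 826 and 813 FPKM, a log2 fold change of -0.64 (SE 0.0314). mt-Nd4 read 495, 496 and 520 FPKM against 336, 336 and 332 FPKM, a log2 fold change of -0.59. mt-Nd5 read 702, 704 and 708 FPKM against 536, 528 and 492 FPKM, a log2 fold change of -0.44. The groups did not overlap in any of these, and all libraries labelled CKO lay below all labelled WT in 51.3% of all genes tested. mt-Nd6, whose mRNA alone among the 13 is made from the opposite strand, read 278, 351 and 334 FPKM against 274, 287 and 252 FPKM. Its groups overlapped, with a log2 fold change of -0.24 (SE 0.0749, adjusted p = 0.0121). That call was lost without WT replicate 2 or CKO replicate 3.

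mt-Co1 (MT:5328-6872), the catalytic subunit of cytochrome c oxidase, was the most abundant of all members. It read 4905, 4865 and 5129 FPKM in WT-labelled libraries and 3641, 3682 and 3637 FPKM in CKO-labelled ones, a log2 fold change of -0.44 (SE 0.0262). The other mRNAs of complex IV and those of ATP synthase read far less. mt-Co2 read 43.0, 37.9 and 43.9 FPKM against 33.4, 35.5 and 37.1 FPKM, and mt-Co3 18.8, 19.0 and 19.6 FPKM against 13.8, 15.4 and 13.3 FPKM. mt-Atp6, the proton channel subunit of ATP synthase, read 9.73, 8.35 and 11.6 FPKM against 8.48, 7.90 and 7.75 FPKM, and its groups overlapped. mt-Nd3 read 2.18, 1.44 and 1.72 FPKM against 1.01, 1.12 and 1.29 FPKM, which rests on 33 reads in WT-labelled libraries and 20 in CKO-labelled ones. Log2 fold changes were -0.23 for mt-Co2, -0.41 for mt-Co3, -0.26 for mt-Atp6 and -0.37 for mt-Nd3. The call of mt-Atp6 did not survive leaving out WT replicate 3, nor CKO replicate 2 or 3, and those of mt-Atp6 and mt-Nd3 under quantile normalization and with voom on recovered reads. mt-Nd4l, at 0.189 to 1.10 FPKM, and mt-Atp8, with 1 read in all, were not tested. These 6 low mRNAs are consecutive among the 13 genes, and 5 of them are those with over 90% of their 75-base stretches in annotated chromosome 1 copies. The lowest library of any of the other 7 stood at 252 FPKM. How reads with several possible origins were handled is not given in the sources used here, and its part in these levels was not tested. The 7 mRNAs with 90% or less of shared stretches had a median log2 fold change of -0.59, and the 4 tested mRNAs above that share had -0.32.

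**Figure D1:**
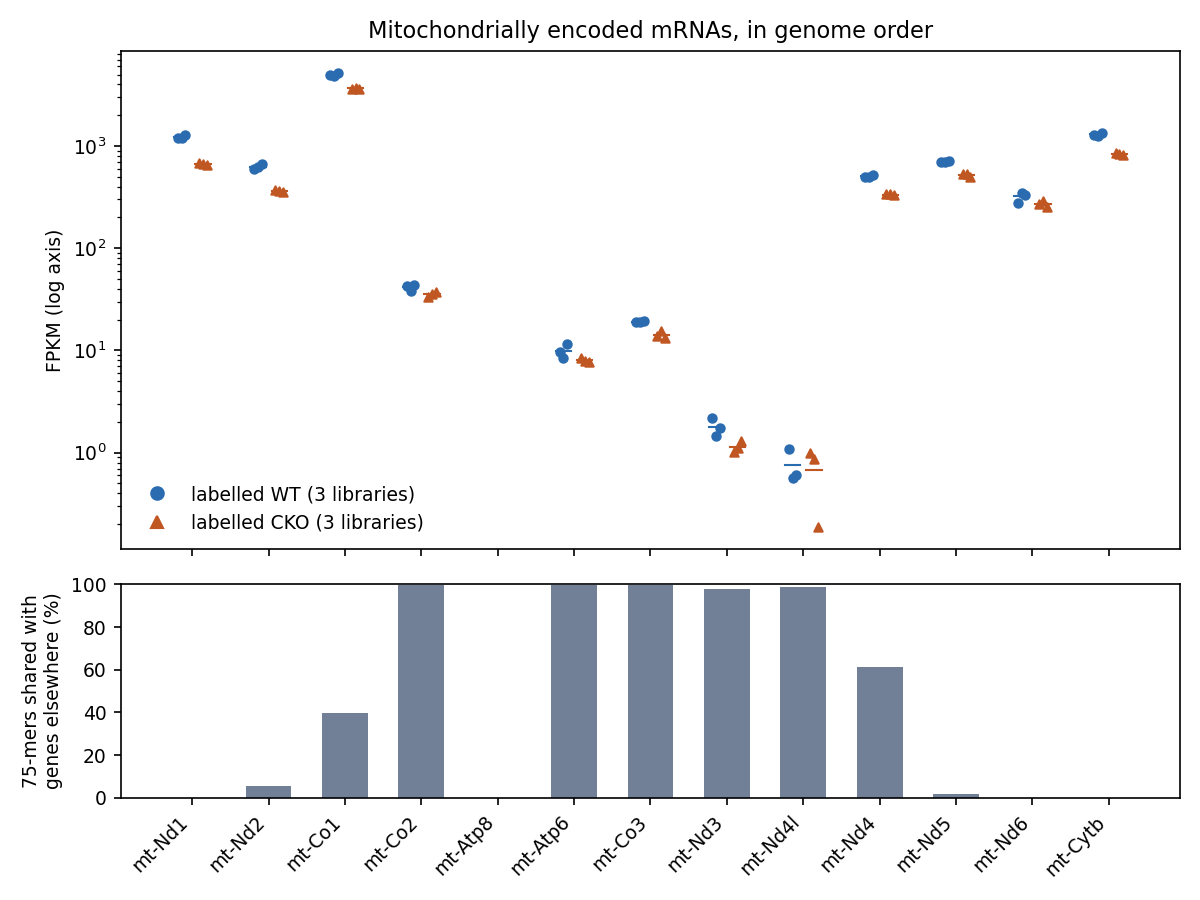
FPKM of the mitochondrially encoded mRNAs in genome order, on a log axis (above; points are libraries, bars are group means, and mt-Atp8 is not drawn because 5 of its 6 values are 0), over the share of 75-base stretches found in annotated genes elsewhere (below, percent). The run from mt-Co2 to mt-Nd4l stands lowest, and 5 of its 6 genes have shared stretches over 90%.

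The 13 mRNAs together took 1.3%, 1.29% and 1.36% of assigned reads in WT-labelled libraries and 0.926%, 0.927% and 0.906% in CKO-labelled ones. Their summed FPKM was 3.03 ± 0.116 times that of the nuclear subunit genes in WT-labelled libraries and 2.12 ± 0.0795 times in CKO-labelled ones (SD, n = 3 each). Both totals include the mRNAs with chromosome 1 copies. The part in them of how reads with several possible origins were handled was not tested. The within-library ratio of summed FPKM does not depend on how libraries are scaled to each other. By contrast, single calls do: scaling by the median of ratios, which sets the middle gene to no change, moved log2 fold changes up by 0.15. Under that scaling 8 of the 11 mRNAs were called lower, and mt-Nd6, mt-Co2 and mt-Atp6 were not called. In all genes that scaling called 39.8% lower. Under quantile normalization 9 of the 11 were called lower, beside 43.4% of all genes.

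The nuclear subunit genes did not move as a block. Of 72 tested, 21 were higher, 34 lower and 17 not called, with a median log2 fold change of -0.09. Among all genes tested 30.5% were higher and 50.5% lower, so as deposited this split sets the subunit genes little apart. The counts by complex and class below stand beside the same shares. After median-of-ratios scaling 29 of the 72 were higher and 14 lower, beside 39.7% and 39.8% of all genes, so calls in the higher direction made up 38.2% of calls as deposited and 67.4% after that scaling. For all genes these shares were 37.7% and 49.9%. Most changes were small. The median absolute log2 change was 0.22 for the nuclear subunit genes and 0.40 for all genes tested, and 2 of the 72, Atp5g2 and Ndufs8, reached 1, against 18.4% of all genes. All 3 libraries labelled CKO lay above all 3 labelled WT in 20 of the 72, and below them in 33, beside 31.2% and 51.3% (82.5% in all) of the genes tested.

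**Figure D2:**
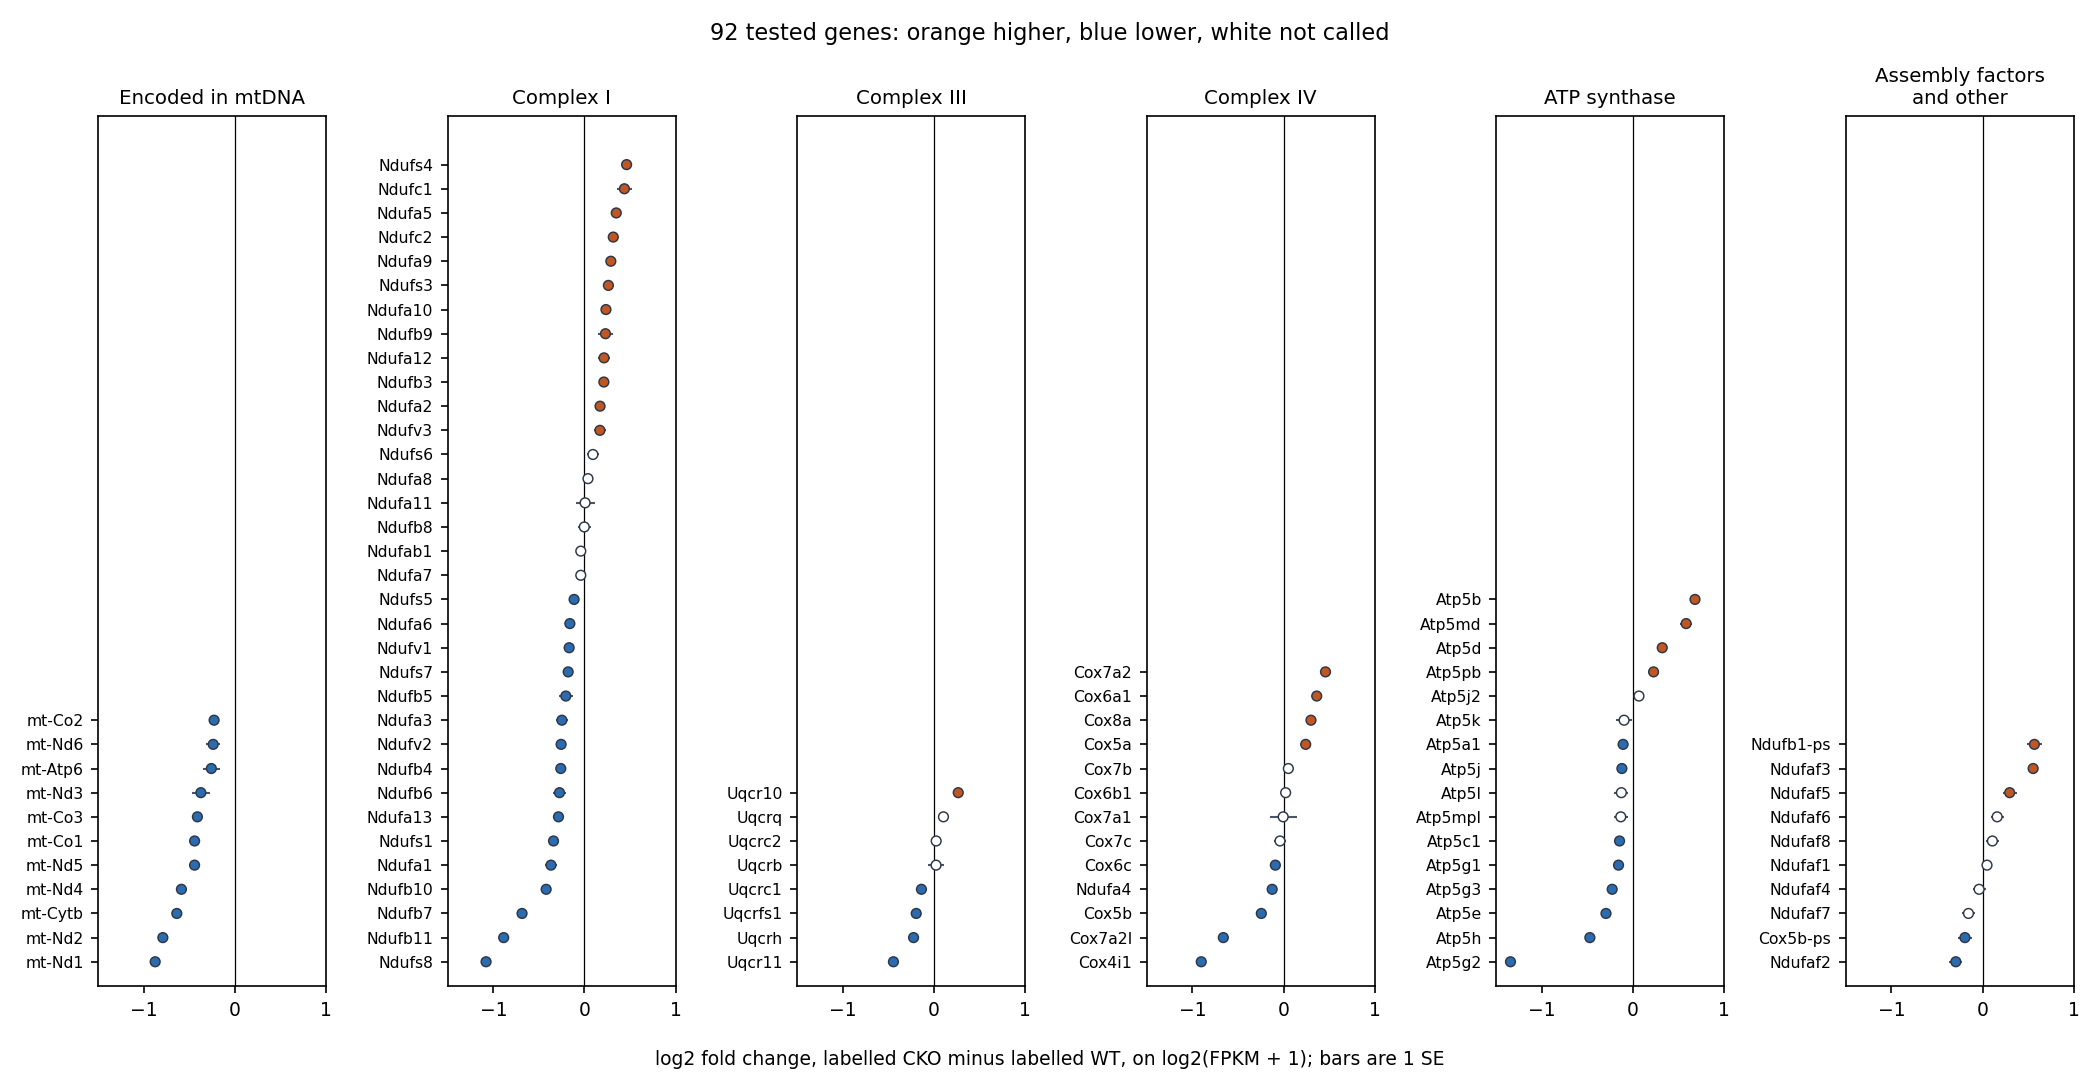
Log2 fold change (labelled CKO minus labelled WT, on log2(FPKM + 1)) of 92 of the 93 tested members by genome and complex, with bars of 1 SE; filled points were called. The mitochondrially encoded mRNAs all lie below 0, while each group of nuclear genes spreads to both sides, from -1.34 for Atp5g2 to 0.68 for Atp5b.

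In complex I, 35 of 36 nuclear subunit genes were tested, and 12 were higher, 17 lower and 6 not called. The nuclear core subunits carry the flavin and iron-sulphur clusters through which electrons pass from NADH to ubiquinone. Of the 6 described here 5 were lower and 1, Ndufs3, was higher. Ndufs8 (19:3908863-3912774), which holds a pair of iron-sulphur clusters near the ubiquinone site, had the widest change of the complex. It read 31.0, 31.2 and 33.8 FPKM in WT-labelled libraries and 15.7, 14.2 and 13.9 FPKM in CKO-labelled ones, a log2 fold change of -1.08 (SE 0.0512, adjusted p = 3.29e-09). Ndufs3, its neighbour in the ubiquinone-side module, read 21.4, 21.8 and 20.6 FPKM against 24.3, 25.3 and 27.5 FPKM, a log2 fold change of 0.26 (SE 0.0473). The groups did not overlap in either gene, and they moved in opposite directions. Ndufs1, Ndufv2, Ndufs7 and Ndufv1 changed by -0.34, -0.26, -0.18 and -0.17 on the log2 scale. After median-of-ratios scaling Ndufs8, Ndufs1 and Ndufv2 were called lower, and Ndufs7 and Ndufv1 were not called.

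Of the 28 tested accessory subunits, which surround the core and are needed for assembly and stability, 11 were higher, 11 lower and 6 not called. After median-of-ratios scaling 14 were higher and 5 lower. Ndufb11 read 44.7, 49.0 and 47.3 FPKM in WT-labelled libraries and 24.9, 25.1 and 24.7 FPKM in CKO-labelled ones, a log2 fold change of -0.89 (SE 0.0388, adjusted p = 1.6e-09). Ndufb7 read 12.6, 11.8 and 11.9 FPKM against 6.60, 7.26 and 7.63 FPKM, a log2 fold change of -0.68. Ndufb10 followed with -0.42 (39.1 ± 1.99 against 29.0 ± 1.72 FPKM) and Ndufa1 with -0.37 (77.4 ± 6.29 against 59.7 ± 4.73 FPKM). In none of these 4 genes did the groups overlap. The widest increase was in Ndufs4, an accessory subunit of the NADH-side module whose loss causes mitochondrial disease. It read 8.52, 8.33 and 9.0 FPKM against 11.6, 12.8 and 12.4 FPKM, a log2 fold change of 0.46 (SE 0.0498, adjusted p = 5e-06). The membrane arm subunits Ndufc1 and Ndufc2 rose by 0.44 and 0.32, Ndufa5 by 0.35 and Ndufa9, which sits beside the ubiquinone channel, by 0.29. Ndufa2, among the most abundant nuclear mRNAs of the complex, read 57.8, 69.5 and 67.8 FPKM against 72.1, 72.9 and 74.2 FPKM, a log2 fold change of 0.17 (adjusted p = 0.0177). That call was lost without CKO replicate 3, without the filter and under quantile normalization.

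The remaining accessory genes moved little. Ndufa13, Ndufb6, Ndufb4, Ndufa3, Ndufb5, Ndufa6 and Ndufs5 were called lower at -0.29 to -0.11, and Ndufa10, Ndufb9, Ndufa12, Ndufb3 and Ndufv3 higher at 0.17 to 0.24. Ndufa7, Ndufab1, Ndufb8, Ndufa11, Ndufa8 and Ndufs6 were not called, at -0.04 to 0.09. After median-of-ratios scaling Ndufa13 alone of the 7 lower genes was still called lower, Ndufa6 and Ndufs5 turned to 0.0029 and 0.05, and Ndufa7, Ndufa8 and Ndufs6 were called higher. The calls of Ndufb5, Ndufb9, Ndufs5 and Ndufv3 were each lost when 1 of several libraries was left out. Ndufb6 and Ndufa13 share 39.0% and 30.0% of their annotated exon bases with other genes, and the sources used here do not say whether reads were counted by strand. Ndufb2 was not tested, at 0.521, 0.554 and 0.715 FPKM against 0.218, 0.277 and 0.170 FPKM over a listed length of 5628 bases.

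In complex III, all 8 nuclear genes that match the symbol rule were tested, and 1 was higher, 4 lower and 3 not called. Uqcrfs1 encodes the Rieske iron-sulphur protein that hands electrons to cytochrome c1. It read 87.1, 87.9 and 82.6 FPKM in WT-labelled libraries and 70.9, 76.0 and 77.9 FPKM in CKO-labelled ones, a log2 fold change of -0.19 (SE 0.0404, adjusted p = 0.000933). The structural core gene Uqcrc1 changed by -0.14, and its partner Uqcrc2 was not called at 0.02. Among the small subunits, Uqcr11 changed by -0.45 (40.1 ± 3.38 against 29.1 ± 1.25 FPKM) and the hinge protein gene Uqcrh by -0.22. Uqcr10 went the other way, reading 63.7, 69.9 and 69.2 FPKM against 78.9, 81.4 and 84.1 FPKM, a log2 fold change of 0.27 (SE 0.0408). Uqcrq and Uqcrb were not called at 0.10 and 0.02. After median-of-ratios scaling Uqcr11 was the 1 gene called lower, and Uqcr10, Uqcrc2 and Uqcrq were called higher.

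The electron carriers next to complex III lie outside the symbol rule, and both were higher. Cyc1, the cytochrome c1 of complex III, read 32.1, 31.6 and 33.4 FPKM in WT-labelled libraries and 49.3, 53.0 and 54.8 FPKM in CKO-labelled ones, a log2 fold change of 0.68 (SE 0.0425). Cycs, the soluble cytochrome c that shuttles electrons to complex IV, read 15.5, 14.6 and 15.2 FPKM against 38.2, 39.2 and 40.9 FPKM, a log2 fold change of 1.33 (SE 0.0396, adjusted p = 5.39e-11). Within complex III, mt-Cytb was lower and Cyc1 higher both as deposited and after median-of-ratios scaling (-0.47 and 0.84), whereas Uqcrfs1 and Uqcrc1 were at -0.03 and 0.03 after that scaling and not called. The change of Cycs was wider than that of any tested complex III member.

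In complex IV, 13 of 20 nuclear genes were tested, and 4 were higher, 5 lower and 4 not called. Cox4i1 (8:120668222-120674207) encodes the main form of subunit 4, which binds mt-Co1 early in assembly. It read 96.8, 110 and 103 FPKM in WT-labelled libraries and 51.8, 56.0 and 56.8 FPKM in CKO-labelled ones, a log2 fold change of -0.90 (SE 0.0497, adjusted p = 1.26e-08). Cox5a, which joins subunit 4 in that step, was higher. It read 17.5, 18.6 and 19.2 FPKM against 20.8, 21.8 and 23.4 FPKM, a log2 fold change of 0.24 (SE 0.0503). Cox5b, which binds zinc, changed by -0.24, and Cox6c by -0.09 (adjusted p = 0.046), a call lost without any 1 of 4 libraries. After median-of-ratios scaling Cox5b and Cox6c were at -0.08 and 0.07 and not called.

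Small subunits with tissue forms were read mainly from their widely expressed forms. Cox6a1 read 206, 218 and 200 FPKM against 258, 272 and 273 FPKM, and Cox8a read 221, 236 and 220 FPKM against 272, 279 and 283 FPKM. Their log2 fold changes were 0.36 (SE 0.037) and 0.30 (SE 0.0332), with no overlap between groups. Cox6b1 (118 ± 1.44 against 120 ± 2.95 FPKM), Cox7b (49.6 ± 1.57 against 51.5 ± 2.50 FPKM) and Cox7c (45.3 ± 3.90 against 44.0 ± 3.19 FPKM) were not called, though after median-of-ratios scaling Cox6b1 and Cox7b were called higher. The forms known from muscle, lung or testis were at or near 0. Cox7b2 and Cox8b had no read, Cox8c had 1, Cox4i2 had 4 reads against 0, and Cox6b2 had 13 against 1. Cox6a2, the heart and muscle form, read 0.559 to 0.656 FPKM against 0.772 to 1.73 FPKM. Cox7a1, the muscle form of subunit 7a, passed the filter at 1.03 ± 0.425 against 1.01 ± 0.307 FPKM and was not called.

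The widely expressed Cox7a genes moved apart. Cox7a2 read 49.2, 48.2 and 48.7 FPKM in WT-labelled libraries and 65.2, 67.5 and 69.4 FPKM in CKO-labelled ones, a log2 fold change of 0.46 (SE 0.0327, adjusted p = 1.24e-07). Cox7a2l, a related protein that joins complexes III and IV into supercomplexes, read 179, 187 and 179 FPKM against 112, 115 and 117 FPKM, a log2 fold change of -0.66 (SE 0.0305, adjusted p = 2.63e-09). Of its 75-base stretches 10.4% also lie in a processed pseudogene.

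Ndufa4, named for complex I but a subunit of complex IV, was barely lower at 65.4, 61.5 and 65.9 FPKM against 55.4, 61.4 and 59.8 FPKM, a log2 fold change of -0.12 (adjusted p = 0.0198). After median-of-ratios scaling it was 0.04 and not called, and the call was also lost without WT replicate 1, WT replicate 3 or CKO replicate 1. Its tissue form Ndufa4l2 had 0 reads against 6. AA467197 (2:122636986-122641191) lies outside the symbol rule. It is the mouse counterpart of human C15orf48 (NMES1), a protein induced in activated macrophages that can take the place of Ndufa4 in complex IV. It read 1.17, 2.13 and 1.45 FPKM in WT-labelled libraries and 23.8, 24.3 and 26.6 FPKM in CKO-labelled ones. The log2 fold change was 3.34 (SE 0.109, adjusted p = 1.18e-10). Within a library, AA467197 stood at 0.0249 ± 0.00873 of the FPKM of Ndufa4 in WT-labelled libraries and at 0.423 ± 0.0250 in CKO-labelled ones (SD, n = 3 each).

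In ATP synthase, 16 of 17 nuclear genes were tested, and 4 were higher, 8 lower and 4 not called. The catalytic head is made of alternating alpha and beta subunits. Atp5b (10:128083273-128090391), the catalytic beta subunit, read 142, 144 and 139 FPKM in WT-labelled libraries and 227, 225 and 230 FPKM in CKO-labelled ones. Its log2 fold change of 0.68 (SE 0.0264, adjusted p = 5.67e-10) was the widest increase of any tested member. Atp5a1, the alpha subunit, read 206, 199 and 198 FPKM against 184, 183 and 191 FPKM, a log2 fold change of -0.11 (adjusted p = 0.00499). After median-of-ratios scaling Atp5a1 was at 0.06 and not called, while Atp5b was at 0.85.

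Atp5g2, a gene of the rotating c ring, showed the widest decrease of all members. The identical mature protein of the ring is encoded by Atp5g1, Atp5g2 and Atp5g3. Atp5g2 (15:102662864-102672352) read 52.7, 53.3 and 50.7 FPKM in WT-labelled libraries and 20.1, 19.0 and 20.7 FPKM in CKO-labelled ones, a log2 fold change of -1.34 (SE 0.0396, adjusted p = 4.88e-11). Atp5g3 changed by -0.23 (45.4 ± 1.54 against 38.6 ± 0.972 FPKM) and Atp5g1 by -0.16 (8.56 ± 0.325 against 7.56 ± 0.423 FPKM). The share of Atp5g2 in the summed FPKM of the 3 genes fell from 49.2% ± 0.114 to 30.2% ± 0.848, and that of Atp5g3 went from 42.7% ± 0.407 to 58.3% ± 0.682 (SD, n = 3 each). Of the 75-base stretches of Atp5g2, 35.8% also lie in processed pseudogenes, Gm10175 on chromosome 7 and Gm10231 on chromosome 17, and the part of those copies in its values was not tested. After median-of-ratios scaling Atp5g1 and Atp5g3 were not called, nor was Atp5g1 without WT replicate 3 or CKO replicate 3.

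The stalks were mixed. In the central stalk Atp5d was higher (0.32), and Atp5e and Atp5c1 lower (-0.30 and -0.15). In the peripheral stalk Atp5pb was higher at 0.22, Atp5h, the d subunit, lower at -0.47 (66.6 ± 1.34 against 47.8 ± 3.99 FPKM), and Atp5j lower at -0.12. After median-of-ratios scaling Atp5c1 and Atp5j turned to 0.02 and 0.04 and were not called, and the other 4 stalk genes kept their calls. Atp5md, a small membrane subunit that holds the enzyme's dimers together, read 6.09, 6.55 and 6.62 FPKM against 9.24, 9.98 and 11.2 FPKM, a log2 fold change of 0.58 (SE 0.0648). The other membrane subunit genes, Atp5j2, Atp5k, Atp5l and Atp5mpl, were not called, at -0.13 to 0.06, and Atp5j2 was called higher (0.23) after that scaling. Atp5o, the stalk protein that confers oligomycin sensitivity, was not tested, at 0.303 to 0.678 FPKM over all libraries. Of its annotated exon bases 47.9% lie in other genes, and its second row was at 0 in every library.

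As deposited, the summed level of each complex differed little for nuclear genes, because increases and decreases offset each other. As summed FPKM of nuclear genes, complex I was 863 ± 12.4 in WT-labelled libraries and 804 ± 21.5 in CKO-labelled ones, and complex III was 387 ± 8.38 against 369 ± 10.5. The complex III sum leaves out its subunit gene Cyc1, which lies outside the symbol rule and was higher, with means of 32.4 against 52.4 FPKM. A ratio under 1 for complex III thus holds for the genes of the rule only. Complex IV was 1120.3 ± 33.4 against 1129.7 ± 32.4, and ATP synthase was 838 ± 5.10 against 856 ± 19.8 (SD, n = 3 each). The corresponding ratios were 0.931, 0.952, 1.01 and 1.02, and they became 1.05, 1.07, 1.13 and 1.15 after median-of-ratios scaling. For mitochondrially encoded mRNAs the ratios of summed FPKM as deposited were 0.637 for complex I, 0.642 for complex III and 0.737 for complex IV. All mitochondrially encoded mRNAs together had a ratio of 0.689 as deposited and 0.775 after median-of-ratios scaling. All nuclear subunit genes together took 0.542% ± 0.00495 of reads in WT-labelled libraries and 0.545% ± 0.0115 in CKO-labelled ones.

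**Figure D3:**
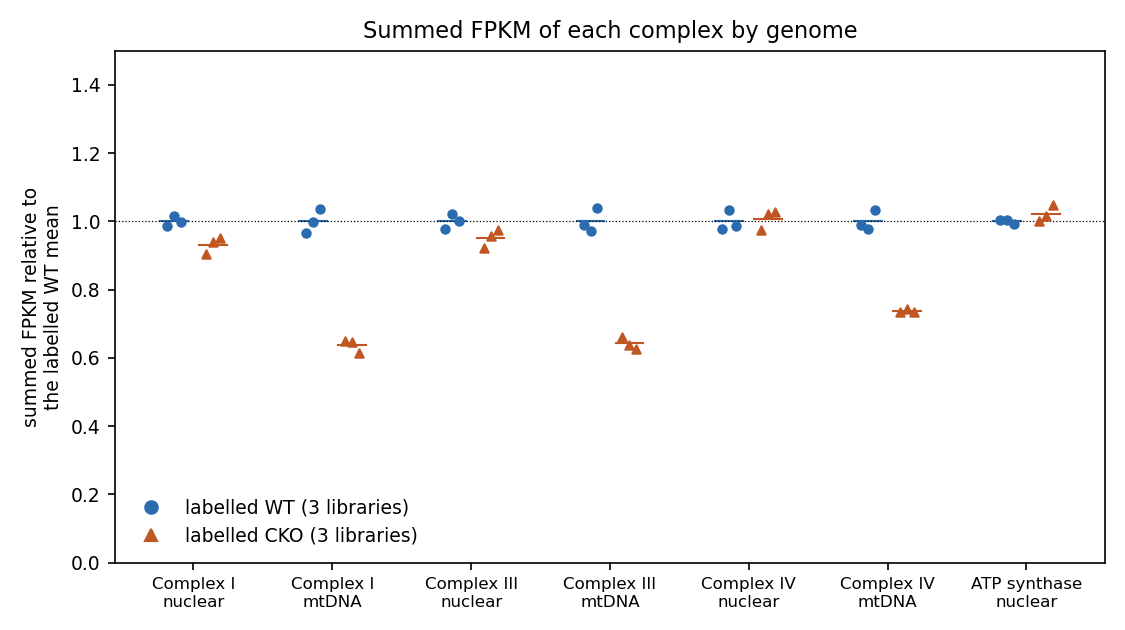
Summed FPKM of each complex, by genome of origin, in each library divided by the mean of the WT-labelled libraries (points are libraries, bars are group means; mitochondrially encoded ATP synthase mRNAs are left out). As deposited, nuclear sums in CKO-labelled libraries average 0.931 to 1.02, and sums of mitochondrially encoded mRNAs in those libraries average 0.637 to 0.737. Sums cover the genes of the symbol rule, so Cyc1 of complex III is not in them.

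The ratios of 4 pairs of genes are given as a description, since the pairs were chosen after their values were seen, for moving in opposite directions. The ratio of Cox4i1 to Cox5a went from 5.61 ± 0.293 in WT-labelled libraries to 2.49 ± 0.0724 in CKO-labelled ones. That of Atp5g2 to Atp5b went from 0.369 ± 0.00377 to 0.0878 ± 0.00289, that of Cox7a2l to Cox7a2 from 3.73 ± 0.130 to 1.70 ± 0.0127, and that of Ndufs8 to Ndufs3 from 1.51 ± 0.117 to 0.571 ± 0.0698. Each is a ratio of FPKM within a library (SD, n = 3 each), so it does not depend on the scaling between libraries.

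**Figure D4:**
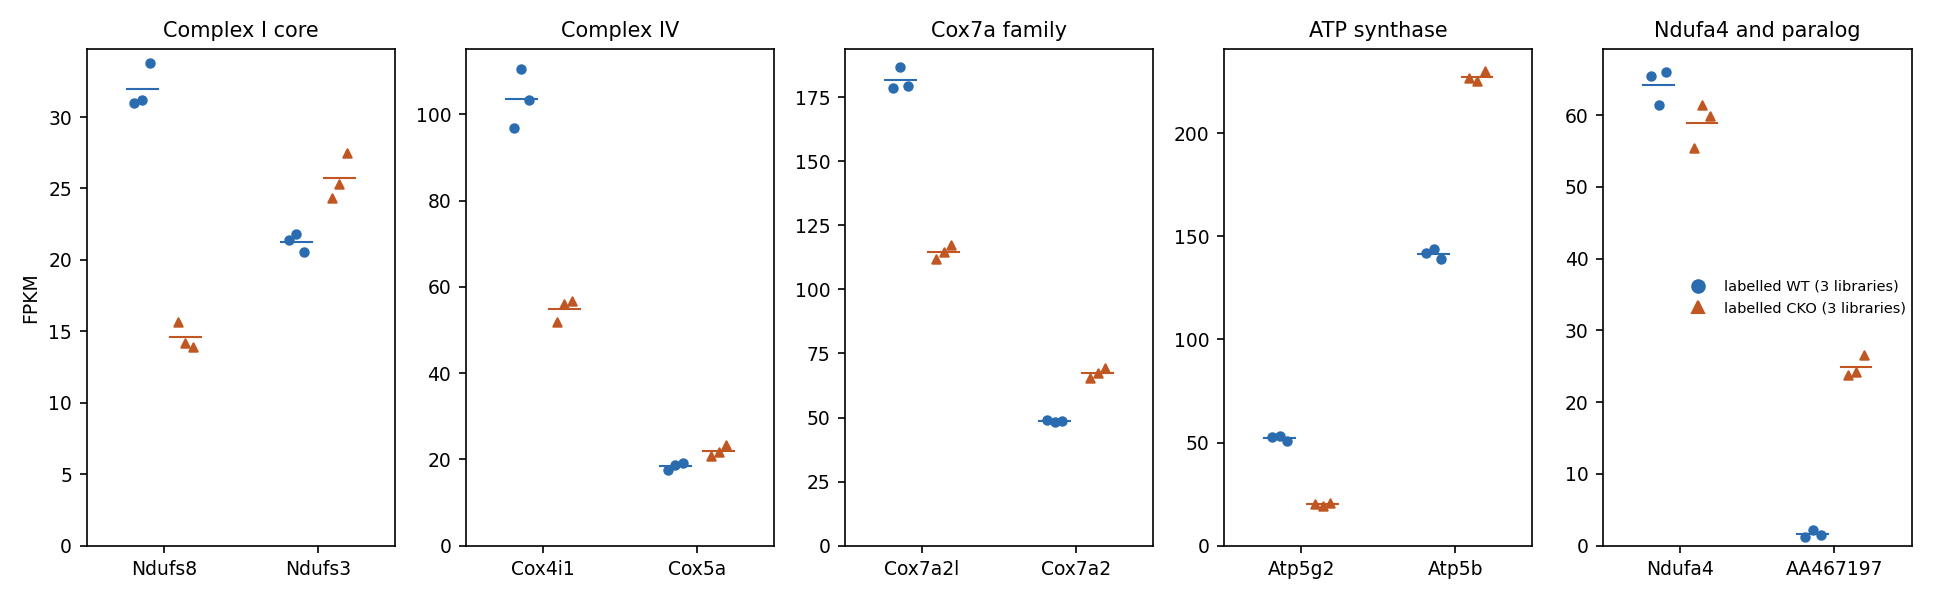
FPKM in each library (points) with group means (bars) for 4 pairs of subunit genes chosen after their values were seen, and for Ndufa4 with AA467197. In each of the first 4 panels the left gene is lower and the right gene higher in CKO-labelled libraries, with no overlap between groups.

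Of the 11 other rows that match the rule, 10 were tested, and 3 were higher, 2 lower and 5 not called. The Ndufaf genes encode proteins that help build complex I and then leave it. Ndufaf3, which acts on its early membrane intermediate, read 6.70, 7.18 and 6.85 FPKM in WT-labelled libraries and 10.4, 10.2 and 11.3 FPKM in CKO-labelled ones, a log2 fold change of 0.55 (SE 0.0509, adjusted p = 1.21e-06). Ndufaf5 was higher at 0.30 and Ndufaf2 lower at -0.29, though 65.6% of the exon bases of Ndufaf2 lie in other genes. Ndufaf1, Ndufaf4, Ndufaf6, Ndufaf7 and Ndufaf8 were not called, at -0.16 to 0.16. Ndufb1-ps, which GENCODE M21 lists as a non-coding RNA, was higher at 0.57 (10.5 ± 1.54 against 15.9 ± 0.887 FPKM), and Cox5b-ps, 43.0% of whose 75-base stretches also lie in Cox5b, was lower at -0.19, a call lost without any 1 of 4 libraries. After median-of-ratios scaling 6 of these rows were higher and 1 lower.

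The promoters of the nuclear subunit genes were read for motifs of factors long tied to respiratory gene control. RefSeq promoters (GRCm38.p6, 250 bases before to 50 after the start) were matched by symbol for 66 of the 81 genes. The motifs searched, on both strands, were CGCATGC for NRF1, CCGGAAG for ETS factors with GABPA, and AAGATGG for YY1; a palindromic stretch can match NRF1 on each strand. NRF1 matches were in 15.2% of these promoters and in 4.96% of all 17492 protein-coding promoters of the table. ETS matches were in 22.7% against 12.9%, and YY1 matches in 16.7% against 7.18%. Of the 19 matched genes called higher, 5.26% held the NRF1 motif, 21.1% the ETS motif and 21.1% the YY1 motif. Of the 29 called lower the shares were 17.2%, 27.6% and 10.3%. With so few promoters each share rests on 1 to 8 genes, and no test was made. The promoters of the genes with the widest decrease and the widest increase are shown, with motif letters in capitals. That of Atp5g2 (chr15:102670998-102671297, minus strand) holds a pair of overlapping NRF1 matches on opposite strands, and none of the 3 motifs is in that of Atp5b (chr10:128083057-128083356, plus strand).
Atp5g2: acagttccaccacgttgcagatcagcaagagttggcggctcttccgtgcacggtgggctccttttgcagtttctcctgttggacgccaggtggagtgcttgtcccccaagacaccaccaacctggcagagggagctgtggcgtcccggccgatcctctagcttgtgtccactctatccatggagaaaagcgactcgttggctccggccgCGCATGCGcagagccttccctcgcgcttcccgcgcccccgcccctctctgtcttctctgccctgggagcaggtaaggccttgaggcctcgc
Atp5b: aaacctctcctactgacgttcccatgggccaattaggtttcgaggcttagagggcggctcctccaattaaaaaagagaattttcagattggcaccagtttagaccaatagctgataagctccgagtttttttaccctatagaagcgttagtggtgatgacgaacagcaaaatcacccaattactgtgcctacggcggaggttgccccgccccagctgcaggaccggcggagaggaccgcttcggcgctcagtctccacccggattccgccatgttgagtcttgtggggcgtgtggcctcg

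Genes that serve the same complexes were counted in lists, and read against the same background of 30.5% higher and 50.5% lower. Succinate dehydrogenase (complex II), which feeds electrons from succinate and has nuclear subunits only, had 2 genes higher and 3 lower of 6 tested. Its flavoprotein gene Sdha read 85.1, 83.8 and 80.7 FPKM against 53.1, 55.5 and 53.8 FPKM (log2 fold change -0.61), and its membrane anchor gene Sdhd 95.5, 93.7 and 95.9 FPKM against 144, 144 and 149 FPKM (0.61). The iron-sulphur subunit gene Sdhb was higher at 0.39 and the assembly factor gene Sdhaf4 lower at -0.33.

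Of 30 tested assembly factors of complexes III, IV and V, 15 were higher, 7 lower and 8 not called, with a median of 0.13. They included Higd1a, a hypoxia-induced partner of complex IV (1.79, 3.60 ± 0.395 against 14.9 ± 1.14 FPKM), Cox18, which inserts mt-Co2 into the membrane (1.17), Coa5 (1.03) and Atpaf2, a chaperone of the alpha subunit (0.69). Of 11 tested assembly factors of complex I outside the rule 4 were higher and 6 lower, and the 4 with the smallest p, Dmac2, Tmem186, Dmac1 and Tmem126b, were lower by -0.69 to -0.45. Higd2a, a relative of Higd1a, was lower at -0.50. In ubiquinone synthesis 8 of 12 were higher and 2 lower, with Coq8a at 1.20, Coq3 and Coq7 at 0.64 each, and Coq10a, which binds ubiquinone, at -1.18. Among other enzymes that pass electrons to ubiquinone 2 of 5 were higher and 2 lower: Sqor, which oxidises sulphide, at 0.81, the glycerol phosphate dehydrogenase Gpd2 at 0.72, and Etfa and Etfdh of fatty acid oxidation at -0.84 and -0.23.

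Of 25 tested genes for mitochondrial transcription and mRNA stability 4 were higher, 7 lower and 14 not called. Tfb2m, the transcription factor that opens mitochondrial promoters, read 7.74, 7.83 and 9.05 FPKM in WT-labelled libraries and 4.29, 3.95 and 4.29 FPKM in CKO-labelled ones, a log2 fold change of -0.83 (SE 0.0632, adjusted p = 2.34e-07). Lrpprc, which stabilises mitochondrial mRNAs, was lower at -0.56, and Tfam, which packages mitochondrial DNA, was not called at -0.15. Pnpt1, a mitochondrial RNA exonuclease, and Fastk were higher at 0.82 and 0.55. In mitochondrial DNA replication 7 of 14 were lower and 2 higher. The single-strand binding protein Ssbp1 was at -0.95 and the kinase Tk2 at -0.72, while the nucleotide kinase Cmpk2, an interferon-induced gene, was at 4.47 and the pyrimidine carrier Slc25a33 at 1.12. Of 10 regulators of mitochondrial biogenesis 4 were higher and 5 lower. Nrf1 was at 0.90, Esrra at 0.53, Perm1 at 1.72 and Gabpa at -0.46, and Ppargc1a was not tested, at a mean of 0.0695 against 0.0729 FPKM.

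Of 11 tested carriers of the inner membrane 7 were lower and 1 higher. The uncoupling protein gene Ucp2 read 85.9, 88.2 and 87.3 FPKM against 20.2, 20.2 and 19.9 FPKM, a log2 fold change of -2.06 (SE 0.0308, adjusted p = 1.97e-13). The phosphate carrier Slc25a3, which supplies ATP synthase, was lower at -0.53, the ADP/ATP carrier Slc25a5 at -0.37, and the aspartate-glutamate carrier Slc25a13 at -1.44. Among 23 import and outer membrane genes 11 were higher and 8 lower, with a median of 0.05. Timm17a, Vdac3, Vdac1 and Hspa9 were the 4 with the smallest p, at 1.09, 0.93, 0.80 and 0.52. After median-of-ratios scaling, which called 39.7% of all genes higher and 39.8% lower, 16 of these 23 were higher and 5 lower. Of the 11 carriers 4 were then higher and 7 lower, and of the 30 assembly factors of complexes III to V 19 and 7. For mitochondrial transcription and mRNA stability that scaling gave 5 higher and 4 lower, and for complex I assembly factors 4 and 4. Succinate dehydrogenase had 3 and 2, ubiquinone synthesis 8 and 1, and other electron entry 3 and 1. Mitochondrial DNA replication had 2 higher and 6 lower, and regulators of mitochondrial biogenesis 5 and 4.

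**Figure D5:**
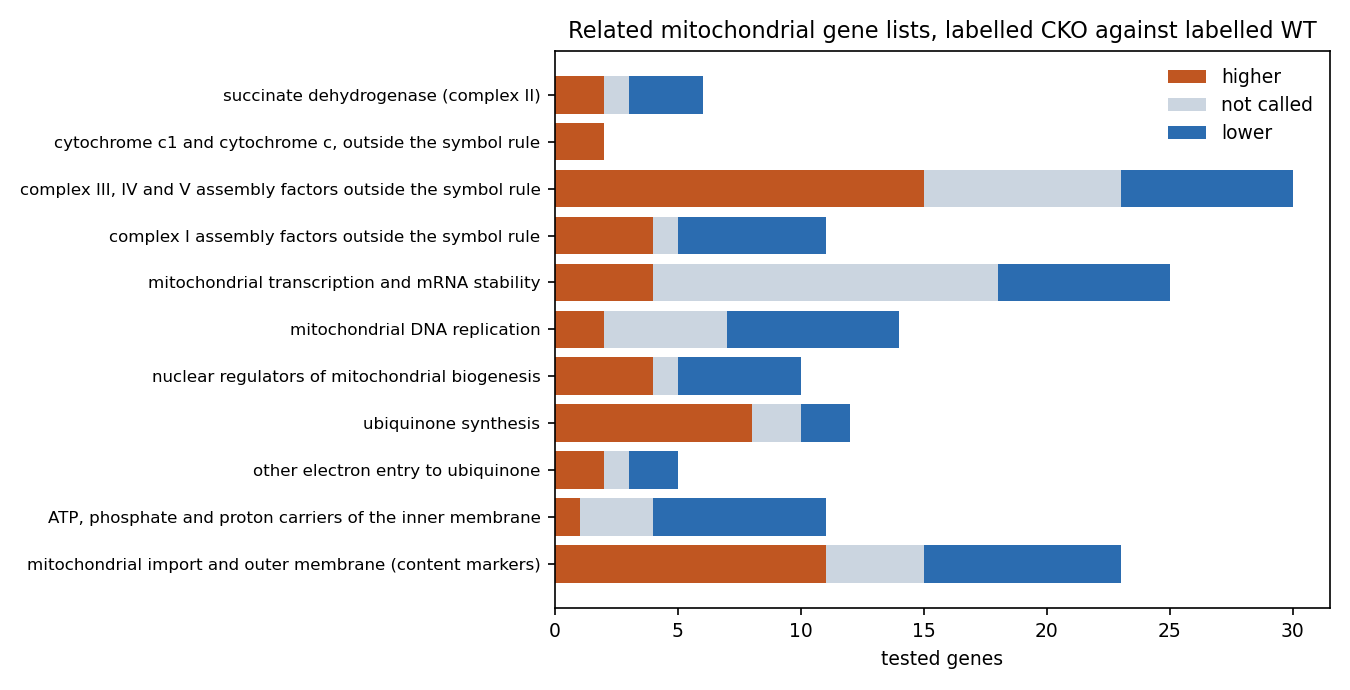
Number of tested genes called higher, not called and called lower (labelled CKO against labelled WT, limma adjusted p under 0.05) in 11 lists of genes related to oxidative phosphorylation. As deposited, carriers of the inner membrane have 7 of 11 genes lower, and ubiquinone synthesis has 8 of 12 higher.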

How the data were processed

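RNA was sequenced from sorted macrophages of 2 groups of 3 libraries; groups and replicate numbers came from the sample titles. Libraries were made with a stranded mRNA kit per the labels' protocols. The authors deposited 1 table of FPKM values per library, per the file headers. Build mm10, featureCounts 1.6.2, HISAT2 2.1.0 and fastp 0.19.3, beside StringTie 1.3.4d and Cufflinks, are among the tools named in the submitters' processing notes, with no role or order. FPKM times length gave whole reads for 100% of values within 0.01, so reads could be recovered; 3 reads per kilobase correspond to 0.163 to 0.195 FPKM.

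The 9953 genes that reached 1 FPKM in 3 or more libraries were fitted on log2(FPKM + 1) by limma 3.58.1 under R 4.3.3 (lmFit, eBayes with trend). The group was the only term, and Benjamini-Hochberg adjustment ran over all genes. An exact permutation test of 3 against 3 cannot go below a two-sided p of 0.1 and was not used. The fit was also run on simulated reads with changes planted in both directions in a small part of the genes. In these data 81.1% of genes were called, so that run does not speak to the scaling between libraries. Shared 75-base stretches were counted between transcripts of GENCODE M21. Tables were made with Python 3.11.15, numpy 2.4.6 and pandas 2.3.3. Alternatives were a replicate block, each library left out, other pseudocounts, filters, scalings and thresholds, and voom on recovered reads.

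The members, lists and tests were chosen with earlier results of these data known. Named were all mitochondrially encoded mRNAs, up to 5 called nuclear members per complex and direction, the 2 most abundant per complex, members of isoform sets, members below the filter, and up to 4 genes with the smallest p per list. Other members were named to account for the rest, except 1 gene that is not reported here singly, and Ndufs3, Tfam and Ppargc1a after their values were seen.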

Additional observations from a re-analysis of the deposited data

How the results depend on the processing

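With each choice changed in turn, all 11 mitochondrially encoded mRNAs were negative under median-of-ratios scaling and quantile normalization, with 9 to 11 called lower when 1 library was left out (9 without CKO replicate 3), and none was called higher in any setting. Under median-of-ratios scaling lower calls were 14 for nuclear subunit genes, 8 for complex I, 1 for complex III, 2 for complex IV, 3 for ATP synthase and 1 for the other rows, while higher calls were 3 for complex III and 6 for the other rows. The summed nuclear FPKM ratios turned to 1.05 for complex I and 1.07 for complex III and moved to 1.13 for complex IV and 1.15 for ATP synthase. The libraries' share of reads from mitochondrially encoded mRNAs had a ratio of 0.698, and their share of summed FPKM 0.671. With a change of at least 0.25 also required, 13 nuclear subunit genes were higher and 16 lower, complex I had 6 and 10, and lower calls were 1 for complex III, 2 for complex IV, 3 for ATP synthase and 1 for the other rows. At an adjusted p under 0.01, complex IV had 3 lower calls and the other rows 1; without the trend these were again 3 and 1. The other rows had 1 lower call without the filter, at a mean FPKM of at least 5 and with voom on recovered reads, and under quantile normalization 5 higher calls and 0 lower. The number of all genes called lower was 3185 at a mean FPKM of at least 5, where fewer were tested. Nuclear subunit genes with under 5% of shared 75-base stretches, a setting chosen after seeing the data, had 15 higher and 21 lower calls of 48 tested.

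Leaving out 1 library gave 19 to 22 higher and 30 to 34 lower nuclear subunit genes. Complex III had 1 to 2 higher calls (2 without WT replicate 2), complex IV 3 to 5 lower calls (3 without WT replicate 3 or CKO replicate 1), and the other rows 3 to 5 higher (5 without WT replicate 1) and 1 to 2 lower calls (1 without WT replicate 3 or CKO replicate 1). With the replicate number as a block, nuclear subunit genes had 21 higher and 33 lower calls, and Ndufs5 and Cox6c were no longer called. Libraries with the same number did not deviate together (correlations 0.019, 0.012 and -0.039). These correlations cannot show whether such libraries were collected or processed together.

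Genes with changes near 0 turned sign. Scaling by the median of ratios moved log2 fold changes up by a median of 0.15, and under it all turns of sign were from negative to positive. The cause of those in the other settings was not tested. Under median-of-ratios scaling log2 fold changes were 0.059 for Atp5a1, 0.019 for Atp5c1, 0.038 for Atp5j, 0.057 for Atp5k, 0.028 for Atp5mpl, 0.071 for Cox6c, 0.079 for Cox7a1, 0.13 for Cox7c, 0.042 for Ndufa4, 0.0029 for Ndufa6, 0.12 for Ndufa7, 0.084 for Ndufab1, 0.098 for Ndufaf4, 0.15 for Ndufb8, 0.050 for Ndufs5 and 0.027 for Uqcrc1. Under quantile normalization they were 0.035 for Atp5l, -0.041 for Cox6b1, 0.17 for Cox7a1, -0.0031 for Ndufa8, 0.12 for Ndufab1, 0.098 for Ndufaf4, 0.099 for Ndufb8 and -0.017 for Uqcrc2. Voom gave 0.012 for Cox7a1 and 0.0026 for Ndufb8, and a pseudocount of 0.1 gave 0.0064 for Cox7a1. With 1 library left out, the range was -0.20 to 0.010 for Atp5k, -0.16 to 0.15 for Cox7a1, -0.10 to 0.021 for Cox7c, -0.14 to 0.10 for Ndufa11, -0.0049 to 0.095 for Ndufa8, -0.081 to 0.039 for Ndufaf4, -0.058 to 0.066 for Ndufb8 and -0.063 to 0.14 for Uqcrb. Estimates for genes with few reads, such as mt-Nd3 with 33 and 20, are imprecise, and the cause of the low count of mt-Nd3 was not tested.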
